A study of Mus musculus with 4 samples.

Results

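The MS4A family (membrane-spanning 4-domains, subfamily A) is described here through 9 members in leukaemic and wild type mouse spleen: Ms4a1, Ms4a2, Ms4a3, Ms4a4b, Ms4a4c, Ms4a6b, Ms4a6c, Ms4a6d and Ms4a7. They were found by symbol among 19297 genes with a single symbol in the platform's probe table, and each of the 9 had 1 probe set. All mice were of the 129Sv strain and carried RBP-J flox/flox, that is, loxP-flanked alleles of the DNA-binding partner of Notch receptors. The 2 wild type mice had Ren1d+/+, an age of 80 and 81 days and a spleen weight of 0.12 g and 0.16 g. The 2 leukaemic mice had Ren1dcre/cre, which places cre recombinase under the renin locus. Replicate 1 was a female of 107 days with a spleen of 0.7 g, and replicate 2 a male of 93 days with one of 0.47 g, while both wild type mice were female. Total RNA of each whole spleen was hybridised to 1 array, so cre, age and spleen weight cannot be told apart from leukaemia. In whole spleen, fewer cells of a type and less RNA per cell cannot be told apart either.

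MS4A proteins cross the membrane 4 times with both ends inside the cell, and single members sit in the receptor complexes of particular leukocytes. MS4A1 is CD20, the B cell surface protein that therapeutic antibodies such as rituximab bind. MS4A2 is the beta chain of the high-affinity IgE receptor of mast cells and basophils, and MS4A3 marks granulocyte and monocyte progenitors. Ms4a4b is best known from T cells, Ms4a6b from T cells and myeloid cells, and Ms4a4c, Ms4a6c, Ms4a6d and Ms4a7 mainly from monocytes and macrophages.

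The arrays' medians lay between 7.96 and 8.03 (log2). The floxed gene Rbpj was at 9.99 and 9.74 in the wild type mice against 9.78 and 9.18 in the leukaemic mice. The brighter of its 2 probe sets gave these values. They check no genotype, since the position of that probe set relative to the loxP sites is unknown here. Of 12 precursor B cell genes 9 were called higher in leukaemic spleen (limma adjusted p under 0.05) and 0 lower. Igll1 and Enpep led, with log2 fold changes of 5.47 and 4.77. At an unadjusted limma p under 0.05, 11 of the 12 were higher and 0 lower. Wild type replicate 2 stood apart in exocrine pancreas genes. All 13 measured genes of that list were highest there, with a list mean of 11.30 (log2) against 6.49 in wild type replicate 1 and 6.61 and 6.53 in the leukaemic mice, and 0 of 13 passed the test, also at an unadjusted limma p under 0.05. The smallest p belonged to Pnliprp1 and Cela1, a lipase-related protein and an elastase (limma adjusted p = 0.35 and 0.36). The same mouse had the lower of the wild type values in all 9 members, by 0.22 (Ms4a3) to 1.22 (Ms4a6d) on the log2 scale, and the part of pancreas RNA in those gaps was not tested.

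No member passed the test between the groups (limma, Benjamini-Hochberg adjusted p under 0.05 over all 19297 genes), where 1.03% of all genes were called lower and 1.43% higher in leukaemic spleen. The smallest adjusted p among the members was 0.096, for Ms4a1. At an unadjusted limma p under 0.05, 6 of 9 members were lower and 0 higher, beside 10.6% and 10.0% of all genes. The same 6, Ms4a1, Ms4a3, Ms4a4b, Ms4a4c, Ms4a6b and Ms4a6c, had both leukaemic arrays below both wild type arrays. That order was found in 26.2% of all genes, and the opposite order in 23.0% of all genes and in 0 members. The median log2 difference, leukaemic minus wild type, was -0.62 over the members and -0.03 over all genes tested. In an alternative fit with a trended and robust prior, the unadjusted limma p of Ms4a4b, Ms4a4c and Ms4a6b was 0.10, 0.13 and 0.077. That of Ms4a1, Ms4a3 and Ms4a6c stayed under 0.05. Intervals given below are from the main fit. Without leukaemic replicate 2, the log2 differences of Ms4a1, Ms4a4b, Ms4a4c and Ms4a6b were -1.08, -2.75, -2.52 and -2.19, and that of Ms4a6d was 0.91. Without leukaemic replicate 1 they were, in the same order, -0.54, -1.01, -0.87, -0.83 and 0.50. In each of these limma fits the lone leukaemic mouse is assumed to vary as the wild type mice do. Calls from them are therefore given only as a range below.

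**Figure D1:**
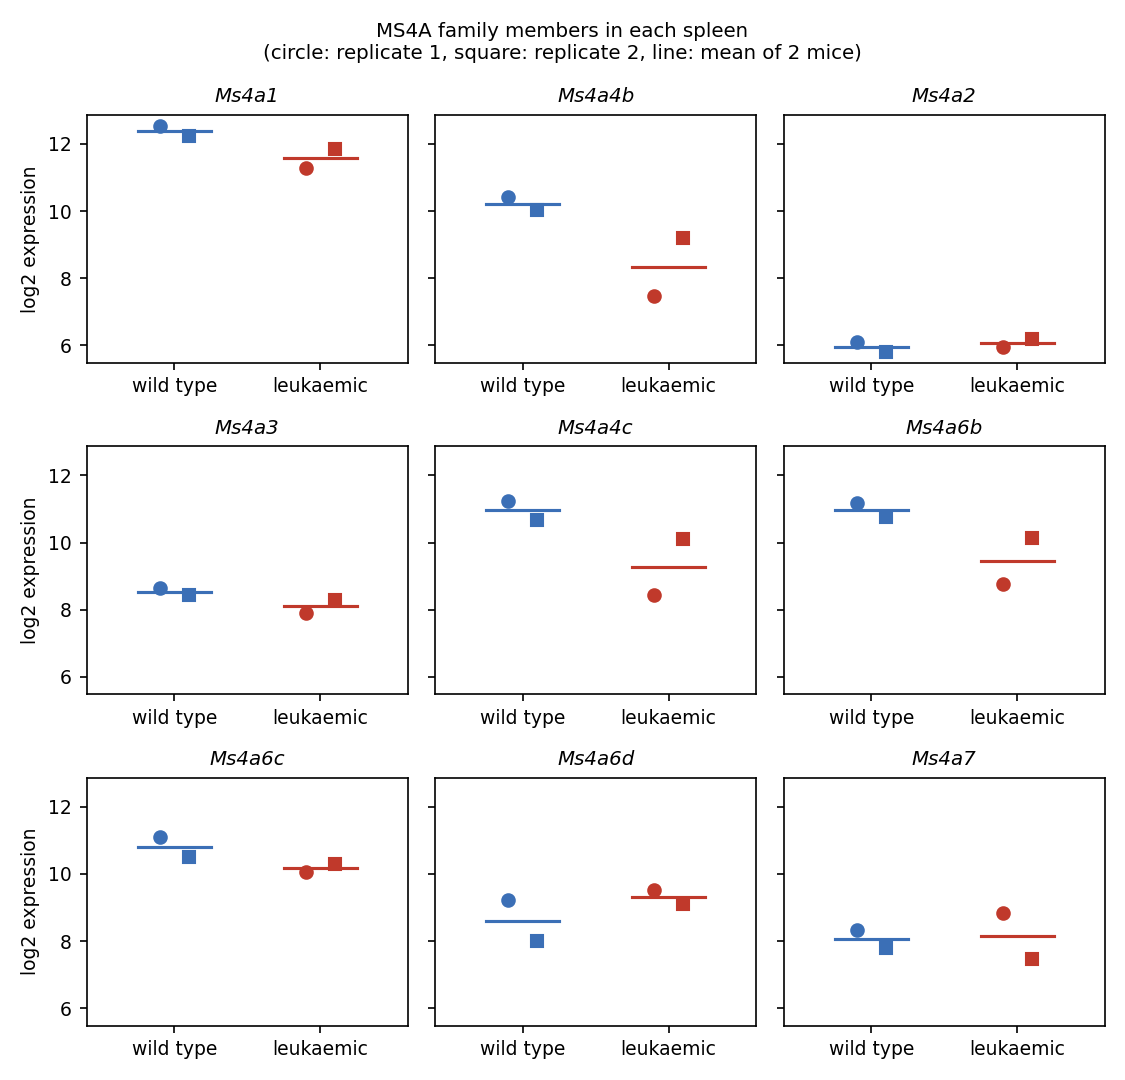
Log2 expression of the 9 members (vertical axis) in wild type (blue) and leukaemic (red) spleens, with 1 point a mouse and a line at the mean of 2 mice. In Ms4a4b, Ms4a4c and Ms4a6b leukaemic replicate 1 (circle) lies far below leukaemic replicate 2 (square), and both lie below the wild type mice.

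The members lie in a single cluster of family genes on chromosome 19. RefSeq (GRCm38.p6) lists 21 Ms4a genes there, of which 18 were measured. The 3 members with the largest differences, Ms4a4b, Ms4a4c and Ms4a6b, lie close together there, in the order Ms4a4c, Ms4a4b, Ms4a6c and Ms4a6b. The 250 bases before the annotated start of these 4 neighbours are shown because they include the 3 members whose profiles were most alike and a close relative, Ms4a6c, with a smaller difference. Sequences are from RefSeq, build GRCm38.p6, plus strand, 5′ to 3′, at chr19:11407411-11407660 (Ms4a4c), chr19:11443308-11443557 (Ms4a4b), chr19:11469118-11469367 (Ms4a6c) and chr19:11518309-11518558 (Ms4a6b). Capitals mark matches, on either strand, to the motifs named in the next paragraph.
Ms4a4c: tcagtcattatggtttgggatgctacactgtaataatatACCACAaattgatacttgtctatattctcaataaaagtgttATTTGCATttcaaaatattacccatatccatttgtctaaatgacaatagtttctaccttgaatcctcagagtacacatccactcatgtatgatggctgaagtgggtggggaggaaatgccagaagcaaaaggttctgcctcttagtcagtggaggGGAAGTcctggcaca
Ms4a4b: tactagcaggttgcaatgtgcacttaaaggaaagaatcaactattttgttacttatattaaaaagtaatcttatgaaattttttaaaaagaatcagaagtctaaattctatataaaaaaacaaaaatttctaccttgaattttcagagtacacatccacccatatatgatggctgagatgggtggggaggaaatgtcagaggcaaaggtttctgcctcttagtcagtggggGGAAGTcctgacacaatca
Ms4a6c: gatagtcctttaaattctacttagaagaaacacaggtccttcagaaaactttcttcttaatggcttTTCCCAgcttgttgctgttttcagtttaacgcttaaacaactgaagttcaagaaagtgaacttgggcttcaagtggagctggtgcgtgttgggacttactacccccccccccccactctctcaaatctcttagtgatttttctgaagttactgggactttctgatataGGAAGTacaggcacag
Ms4a6b: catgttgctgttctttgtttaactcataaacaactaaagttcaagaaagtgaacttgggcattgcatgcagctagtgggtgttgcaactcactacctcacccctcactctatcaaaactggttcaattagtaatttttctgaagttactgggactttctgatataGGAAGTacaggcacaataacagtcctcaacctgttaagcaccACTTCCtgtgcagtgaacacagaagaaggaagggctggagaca

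Both strands were searched for 6 motifs. The core that RBP-J recognises was taken as TGGGAA. Factors of the ETS family, among them the myeloid and B cell regulator PU.1, were represented by the letters GGAAGT, which overlap with the RBP-J core at GGAA. For the Runx factors of blood cells the letters were TGTGGT. The octamer, which Oct factors of B cells bind, was ATGCAAAT. GATA factors, which act in mast cells and erythroid cells, were represented by AGATAA, and the interferon-stimulated response element was the remaining motif. The promoter table held 8 such stretches from 7 members; Ms4a1 and Ms4a6d had no entry. GGAAGT occurred in 6 of the 8, and in 19.7% of all 32841 promoters of the same length. The 8 stretches are not independent, and an excess was not tested. Ms4a4b and Ms4a4c share a GGAAGT within like sequence, and so do Ms4a6b and Ms4a6c. GGAAGT began 19, 15 and 16 bases before the start in Ms4a4b, Ms4a4c and Ms4a6c, and the pair in Ms4a6b began 85 and 43 bases before it. TGGGAA was found in Ms4a3 and Ms4a6c (21.6% of all promoters). AGATAA was found only in Ms4a2 among the members, at 3 places (9.99% of all promoters). TGTGGT and ATGCAAAT each occurred once, in Ms4a4c (14% and 1.6%), and the interferon-stimulated element in 0 of 8 (2.98%). These are matches of letters, not measured binding sites. Aligned with each other, Ms4a4b and Ms4a4c were identical at 189 of 227 aligned bases (83.3%), and Ms4a6b and Ms4a6c at 153 of 173 (88.4%). The 18 other pairs of stretches with at least 100 aligned bases ranged from 66.5% to 77.4%. The pair with the highest identity, Ms4a6b and Ms4a6c, belonged to members with unlike differences (-1.51 and -0.62).

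Ms4a1, the CD20 gene, was lower in both leukaemic spleens. Wild type replicates 1 and 2 had 12.53 and 12.23 (log2), and leukaemic replicates 1 and 2 had 11.30 and 11.84. The groups did not overlap. The mean went from 12.38 ± 0.22 to 11.57 ± 0.38 (SD, n = 2), a log2 difference of -0.81 (SE 0.21, 95% confidence interval -1.32 to -0.30, limma adjusted p = 0.096), or 1.75-fold. Among 18 measured genes of the B cell list 4 were called lower and 0 higher, with a median of -0.32. At an unadjusted limma p under 0.05, 9 were lower and 0 higher. The leading falls were those of Fcmr, an IgM receptor (-2.01, SE 0.24), and Cr2, the complement receptor CD21 (-1.86, SE 0.24). The CD79 genes, which encode the signalling chains of the B cell receptor, differed by 0.08 (Cd79a) and -0.04 (Cd79b) and did not pass. Relative to the mean of the B cell list on the same array, Ms4a1 changed by -0.24 (0.74 and 0.64 above it in wild type, 0.33 and 0.57 in leukaemic spleen). That change was -0.12 without leukaemic replicate 1 and -0.37 without leukaemic replicate 2. By root mean square difference of centred values over the 4 arrays, the nearest of 143 listed genes to Ms4a1 were Cd74, the class II invariant chain (0.05), and Siglec1, a macrophage lectin (0.07).

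Ms4a4b, the T cell member, showed the largest difference of the 9. The wild type mice had 10.42 and 10.02 (log2), and leukaemic replicates 1 and 2 had 7.47 and 9.21. Both leukaemic mice lay below both wild type mice, and the leukaemic mice lay 1.74 apart. The log2 difference was -1.88 (SE 0.50, 95% confidence interval -3.07 to -0.69, limma adjusted p = 0.097), or 3.69-fold. It was -1.01 without leukaemic replicate 1 and -2.75 without leukaemic replicate 2. Of 16 T cell genes 7 were called lower and 0 higher, with a median of -1.37. All 16 were lower at an unadjusted limma p under 0.05. These falls were led by the CD3 chain genes Cd3g and Cd3e (-1.78, SE 0.33, and -1.70, SE 0.29). Of 11 NK cell genes 6 were called lower and 0 higher, with a median of -1.39. At that unadjusted p, 9 were lower and 0 higher. Ncr1 and Klrd1, receptors of NK cells, led at -2.29 (SE 0.24) and -2.05 (SE 0.31). Against the T cell list mean of the same array, Ms4a4b stood at 0.23 and 0.19 in wild type, -0.95 in leukaemic replicate 1 and 0.21 in leukaemic replicate 2. The change against that list, -0.58, therefore rested on leukaemic replicate 1, and was 0.0041 without it. Against the NK cell list the change was -0.69, and -0.07 without leukaemic replicate 1. Cd28, a costimulatory receptor of T cells, was the listed gene nearest to Ms4a4b (root mean square difference 0.10), with 10.03 and 9.48 in the wild type mice and 7.16 and 8.94 in leukaemic replicates 1 and 2. Mmp8, of the granulocyte progenitor list, came second (0.22). Tnfrsf18, the receptor GITR, differed by -0.96 (limma adjusted p = 0.054).

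Ms4a4c and Ms4a6b followed Ms4a4b across the arrays. For Ms4a4c the wild type values were 11.25 and 10.68, and leukaemic replicates 1 and 2 had 8.45 and 10.09. The log2 difference was -1.70 (SE 0.49, 95% confidence interval -2.86 to -0.53, limma adjusted p = 0.12), or 3.24-fold. For Ms4a6b the wild type values were 11.19 and 10.76, and the leukaemic values 8.78 and 10.15. Its log2 difference was -1.51 (SE 0.41, 95% confidence interval -2.48 to -0.53, limma adjusted p = 0.10), or 2.85-fold. In both genes the groups did not overlap, and leukaemic replicate 1 was lowest, by 1.64 and 1.37 below replicate 2. The listed genes nearest to Ms4a4c were Cd28 (0.05) and Mmp8, a neutrophil collagenase (0.20), and those nearest to Ms4a6b were Cd8b1 (0.11) and Cd8a (0.15), the chains of the CD8 coreceptor. Against the monocyte list mean of the same array Ms4a4c changed by -1.33 and Ms4a6b by -1.14. Against the macrophage list mean they changed by -1.22 and -1.04. In all 4 cases both leukaemic arrays lay below both wild type arrays. These cases come from 2 members of like profile (root mean square difference 0.14) on the same arrays. No share over all genes was computed for values against a list mean, here or for other members. Without leukaemic replicate 1 these changes were smaller, -0.70 and -0.66 against monocytes and -0.43 and -0.38 against macrophages, and the plain differences were -0.87 and -0.83. Without leukaemic replicate 2 they were larger, -1.95 and -1.63 against monocytes and -2.01 and -1.69 against macrophages. Neither gene was set against the T cell list on the same array. That list's mean differed by -1.31, and by -1.02 without leukaemic replicate 1, a larger fall than both plain differences there.

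**Figure D2:**
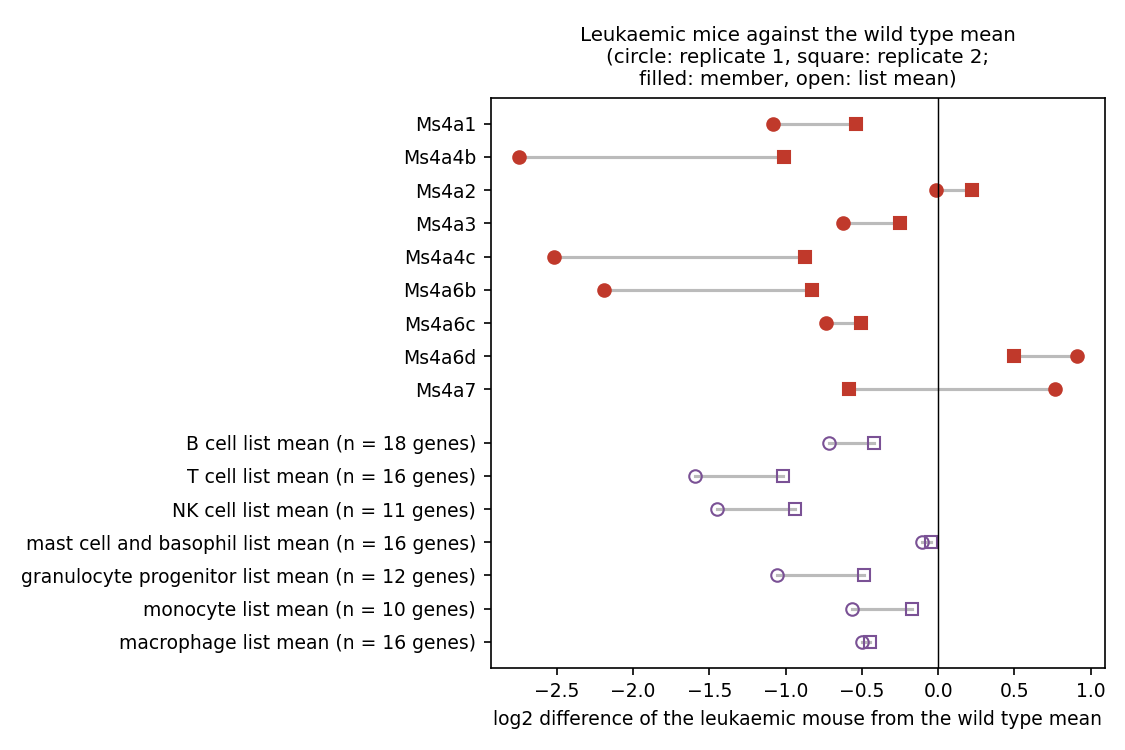
Log2 difference of each leukaemic mouse from the mean of 2 wild type mice (horizontal axis), for the 9 members (filled) and for the mean of each cell type list (open). Ms4a4b, Ms4a4c and Ms4a6b reach -2.75, -2.52 and -2.19 in replicate 1, past the T cell list mean of -1.60. In replicate 2 they reach -1.01, -0.87 and -0.83, not past that list's mean of -1.02. Ms4a6d lies above 0 in both mice and Ms4a7 on both sides of it.

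The difference between the leukaemic mice was itself uneven over the cell type lists. Leukaemic replicate 2 stood above replicate 1 by 0.58 in the T cell list mean, 0.51 in the NK cell list, 0.57 in the granulocyte progenitor list, 0.39 in the monocyte list and 0.29 in the B cell list. In the macrophage and dendritic cell lists the gap was 0.06 and 0.10. Of 10 dendritic cell genes 6 were called lower and 0 higher, with a median of -1.10, led by Siglech (-2.15) and Ccr9 (-2.02). At an unadjusted limma p under 0.05, 9 were lower and 0 higher. Replicate 1 came from the older mouse with the heavier spleen, and replicate 2 was the male. The part of age, weight and sex in these gaps was not tested.

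The other 3 members of monocytes and macrophages had smaller or opposite differences, which were not tested against those of Ms4a4c and Ms4a6b. Ms4a6c was at 11.10 and 10.50 in the wild type mice, against 10.06 and 10.29 in the leukaemic mice. Its groups did not overlap, and the log2 difference was -0.62 (SE 0.22, 95% confidence interval -1.14 to -0.10, limma adjusted p = 0.17). It was -0.32 without wild type replicate 1 and -0.92 without wild type replicate 2. Against the list mean of the same array it changed by -0.25 (monocyte) and -0.15 (macrophage), with overlapping arrays, and by -0.03 and 0.04 without wild type replicate 1. Tmem176b and Tmem176a, distant relatives of the family, were the listed genes nearest to it (0.04 and 0.06).

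Ms4a6d, a macrophage member, had a higher mean in leukaemic spleen. The wild type mice had 9.22 and 8.00 and the leukaemic mice 9.52 and 9.11, so that the groups overlapped. The log2 difference was 0.70 (SE 0.37, 95% confidence interval -0.18 to 1.59, limma adjusted p = 0.36). It depended on which wild type mouse it was set against, with 0.09 without wild type replicate 2 and 1.32 without wild type replicate 1. Against the list mean of the same array Ms4a6d changed by 1.07 (monocyte) and 1.18 (macrophage). There both leukaemic arrays lay above both wild type arrays. These changes also moved with the wild type mouse, to 0.53 and 0.68 without replicate 2 and to 1.61 and 1.67 without replicate 1. Without leukaemic replicate 1 the change against monocytes was 0.67. The gap between Ms4a6d and Ms4a6b on the same array changed by 2.21 in favour of Ms4a6d. Its groups did not overlap, as in most pairs of members, and the pair is only an example. No exact permutation test of such a value can pass with this number of mice, since its smallest two-sided p is 0.333.

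Ms4a7, another macrophage member, was at 8.33 and 7.79 in the wild type mice, with 8.82 in leukaemic replicate 1 and 7.47 in replicate 2. The leukaemic mice were the highest and the lowest of the 4. The log2 difference was 0.09 (SE 0.42, limma adjusted p = 0.95), and its 95% confidence interval of -0.90 to 1.08 leaves changes of either sign possible. It was -0.58 without leukaemic replicate 1 and 0.76 without leukaemic replicate 2. Cd5l, a protein secreted by macrophages, was the nearest listed gene, at a distance of 0.30. Mcpt4, of the mast cell and basophil list, came second (0.36).

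Among the reference genes for these members, 0 of 10 monocyte genes and 0 of 16 macrophage genes passed the test, with medians of -0.49 and -0.46. At an unadjusted limma p under 0.05, 6 monocyte genes were lower and 1 higher, and 9 macrophage genes were lower and 0 higher. The smallest p belonged to Nr4a1 (-0.63, limma adjusted p = 0.066) and Cx3cr1, the fractalkine receptor (-0.60, 0.068), among monocyte genes. Among macrophage genes it belonged to Slc40a1, the iron exporter ferroportin (-0.76, 0.056), and Siglec1 (-0.95, 0.060).

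Ms4a3, the progenitor member, was at 8.65 and 8.43 in the wild type mice, against 7.91 and 8.29 in the leukaemic mice. The groups did not overlap, though the nearest arrays lay close together. The log2 difference was -0.44 (SE 0.18, 95% confidence interval -0.86 to -0.02, limma adjusted p = 0.22), and -0.25 without leukaemic replicate 1. Of 12 genes of granulocyte progenitors and their granules 2 were called lower and 0 higher, with a median of -0.88. The called genes were Camp, an antimicrobial peptide (-1.24, SE 0.21), and Mpo, myeloperoxidase (-0.88, SE 0.16). At an unadjusted limma p under 0.05, 9 of the 12 were lower and 1 higher. Relative to that list's mean Ms4a3 changed by 0.33 (0.21 without wild type replicate 2), with both leukaemic arrays above both wild type arrays. Lyz2 and Csf1r, genes of lysozyme and of the macrophage growth factor receptor, were nearest to Ms4a3 (0.04 and 0.09).

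Ms4a2, the IgE receptor beta chain, was at 6.10 and 5.82 in the wild type mice, against 5.95 and 6.18 in the leukaemic mice. The groups overlapped, and the log2 difference was 0.11 (SE 0.17, 95% confidence interval -0.29 to 0.50, limma adjusted p = 0.83). These values lay under the lower quartile of every array (6.43 to 6.62), and detection calls were not analysed here, so a signal above background is not shown. The partner chains of the receptor differed by -0.31 (Fcer1a, the IgE-binding chain) and -0.54 (Fcer1g, the signalling chain shared with other Fc receptors, limma adjusted p = 0.14). Of 16 mast cell and basophil genes 0 passed, with a median of -0.07. At an unadjusted limma p under 0.05, 2 of the 16 were lower, Fcer1g and Hdc, the histamine-forming enzyme (-0.65), and 0 higher. The listed genes nearest to Ms4a2 were Cd79a, of the B cell list (0.08), and Cd200r3, of the mast cell and basophil list (0.11).

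**Figure D3:**
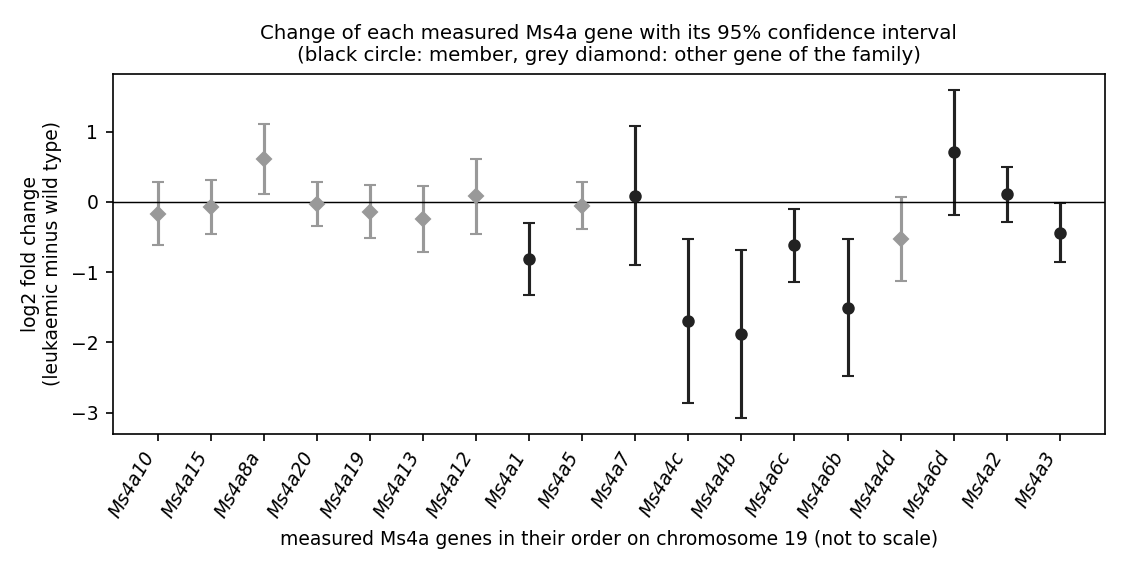
Log2 fold change, leukaemic minus wild type (vertical axis), with 95% confidence intervals from limma, for the 18 measured Ms4a genes in their order on chromosome 19. The members (black circles) include the 3 lowest values, at Ms4a4c, Ms4a4b and Ms4a6b, and the interval of Ms4a7 runs from -0.90 to 1.08.

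Among 9 measured genes of the fixed list of other family genes and relatives, 0 passed the test, with a median of -0.17. At an unadjusted limma p under 0.05, 2 were lower, Tmem176a (-0.67) and Tmem176b (-0.59), and 1 higher, Ms4a8a (0.61). Ms4a8a was at 8.48 and 7.94 in the wild type mice, against 8.94 and 8.70 in the leukaemic mice, without overlap. It was the listed gene nearest to Ms4a6d (0.25), before Lef1 of the precursor B cell list (0.33). Ms4a4d, which lies between Ms4a6b and Ms4a6d, differed by -0.53 (limma adjusted p = 0.30), again without overlap. Ms4a5, Ms4a10, Ms4a12, Ms4a13 and Ms4a15 differed by -0.24 to 0.08, and their groups overlapped. So did those of Ms4a19 and Ms4a20, which were added after the values were seen (-0.14 and -0.03).

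**Figure D4:**
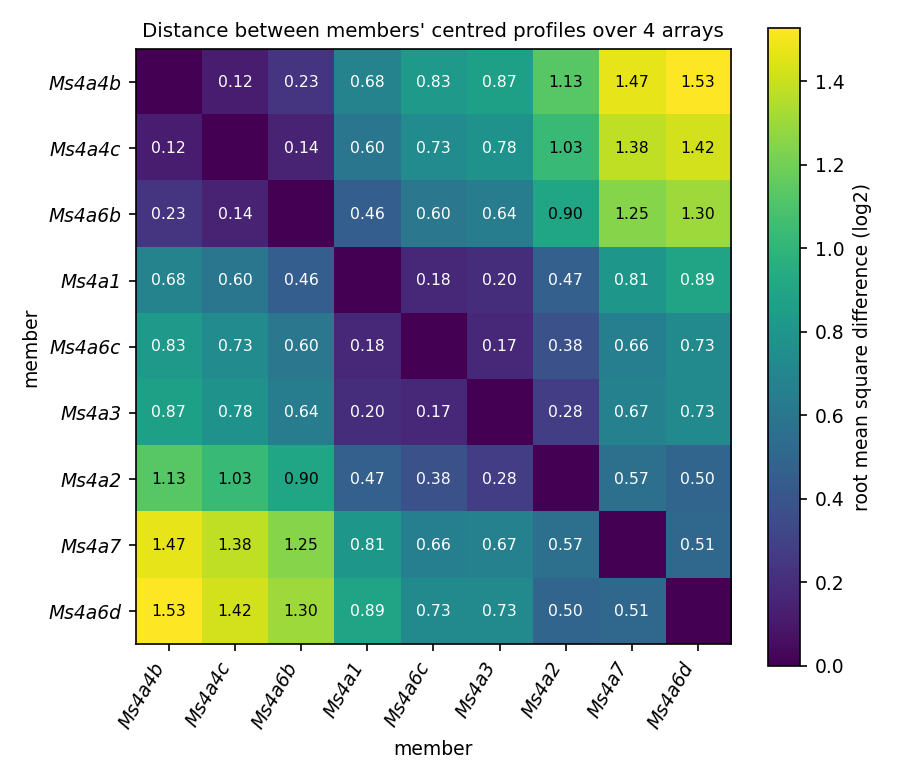
Root mean square difference (log2) between the centred profiles of each pair of members over the 4 arrays. Ms4a4b, Ms4a4c and Ms4a6b lie within 0.23 of each other, Ms4a1, Ms4a3 and Ms4a6c within 0.20, and Ms4a4b and Ms4a6d are farthest apart at 1.53.

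Set against each other over the 4 arrays, the members formed 2 close sets, named after their values were seen, and 3 others. Ms4a4b, Ms4a4c and Ms4a6b differed from one another by 0.12 to 0.23, and shared a low in both leukaemic mice that was deepest in replicate 1. Ms4a1, Ms4a3 and Ms4a6c differed by 0.17 to 0.20, with a shallower low in both leukaemic mice. Ms4a2, Ms4a6d and Ms4a7 stood 0.50 to 0.57 from one another, and their groups overlapped. All pairs share the same 4 arrays, and 4 points cannot separate cell type from mouse, so these distances are a description. Ms4a6b and Ms4a6c, the pair with the most alike promoters, were in different sets. Family genes are close relatives, and a match of probes to more than 1 of them was not tested.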

How the data were processed

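Spleen RNA of 4 mice, 2 a group, was measured with 1 Affymetrix whole-transcript array each. Groups and replicate numbers came from the sample titles. The deposited values are on a log2 scale, 1 for each probe set and array, as the authors made them. RMA, R 2.15.0 and limma 3.12.1 are named in the submitters' processing notes, without settings or order. Of 23309 probe sets 20729 had 1 gene symbol, 1174 several and 1406 none. Names came from the first class, and the probe set with the highest mean stood for a gene.

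The comparison of leukaemic with wild type mice used limma 3.58.1 (lmFit and eBayes without covariates) under R 4.3.3, with Benjamini-Hochberg adjustment over 19297 genes. Standard errors and 95% intervals are those of the moderated fit, with 2 residual degrees of freedom and 4.83 more from limma's prior. Precision is limited by having 4 arrays. The script was tested on simulated data; where variances had heavier tails than limma assumes, false calls exceeded the nominal rate.

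Named were all members, from each of 11 lists up to 2 called genes with the largest rise and fall (or the 2 of smallest p), the 2 nearest listed genes of a member, and Rbpj. Cd79a, Cd79b, Fcer1a and Tnfrsf18 were added as partners after their values were seen. Members and lists were chosen with earlier results of these data known. Promoters were aligned with Biopython 1.88. Alternatives covered centring, normalization, filtering, the variance prior, a minimum fold change, probe sets, the replicate block and each mouse left out.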

Additional observations from a re-analysis of the deposited data

How the results depend on the processing

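No member was called in either direction under 7 alternatives (centred arrays, quantile normalization, the dimmest 33.3% of genes removed, a trended and robust prior, a minimum log2 fold change of 0.5, averaged probe sets, and all probe sets fitted), nor without either wild type mouse. Ms4a2 is among the genes removed as dim. The unadjusted limma p under 0.05 was not kept by Ms4a4b, Ms4a4c and Ms4a6b with the trended and robust prior. Ms4a3 did not keep it with centred arrays, nor did Ms4a1, Ms4a3 and Ms4a6c with the minimum fold change. With the replicate number as a block (replicate block), 4 members were called lower (Ms4a1, Ms4a4b, Ms4a4c and Ms4a6b) and 1 higher (Ms4a6d). The block leaves fewer residual degrees of freedom, so these calls lean more on limma's prior and do not show that same-numbered mice agree. Ms4a4b, for example, was at 10.42 (wild type) and 7.47 (leukaemic) in replicate 1, but at 10.02 and 9.21 in replicate 2. The labels call the replicates individual mice. Deviations of same-numbered mice from their group means correlated at -0.09 over genes, and whether such mice share a batch was not tested. Leaving out 1 mouse in turn gave 0 to 4 members called lower and 0 to 1 higher.

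Over all genes, 199 were called lower and 276 higher. These counts were 93 and 168 after quantile normalization, 456 and 509 with the trended and robust prior, 7 and 48 with a minimum log2 fold change of 0.5, and 908 and 785 with the replicate block. Fitting all probe sets gave 121 lower. With 1 mouse left out they ranged from 0 to 593 lower and from 0 to 450 higher, the 0 without wild type replicate 2. The cause was not tested.

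No member changed sign except Ms4a2 and Ms4a7, and only with a mouse left out, where the sign of the 6 members without overlap was fixed by that order. The Ms4a2 difference ranged from -0.039 to 0.25 and that of Ms4a7 from -0.58 to 0.76. Of 15 values against a list of cell type genes, 4 changed sign with a mouse left out, Ms4a4b against T cells, Ms4a6c against macrophages and Ms4a7 against both lists.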
